A study of Mus musculus with 26 samples.

Results

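The genes described here code for ubiquitin ligases and for the substrate receptors of ubiquitin ligases of 3 kinds, the RING finger proteins (Rnf genes with a number, and Rlim), the tripartite motif proteins (Trim genes with a number) and the F-box proteins (Fbxl, Fbxo and Fbxw genes with a number). They were chosen by a rule on gene symbols, and they numbered 130 of the 10104 transcripts with a value in either cell type. Of these, 60 were Rnf genes or Rlim, 27 were Trim genes, 12 were Fbxl genes, 24 were Fbxo genes and 7 were Fbxw genes. In oligodendrocyte progenitor cells (OPCs) 109 of them were among 8530 listed transcripts, and in oligodendrocytes (OLs) 127 were among 9751. Both cell types listed 106, OPCs alone listed 3 and OLs alone listed 21.

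A ubiquitin ligase brings a substrate protein to a ubiquitin-loaded E2 enzyme, so that the substrate is tagged, often for the proteasome. RING finger and TRIM proteins bind the E2 through their own RING domain, and RING-between-RING enzymes first take ubiquitin onto themselves. F-box proteins bind a substrate and plug into the SCF complex through Skp1, with the cullin Cul1 as the scaffold and the RING protein Rbx1 as the site of the E2.

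RNA decay was followed in murine OPCs derived from epiblast stem cells of strain 129S/SvEv, and in OLs obtained from such OPCs with a medium that contained thyroid hormone (T3). The OPCs were expanded with bFGF and PDGFA, and the OL medium held noggin, IGF-1, cyclic AMP and NT3 beside T3. Both were labelled with 5-ethynyl uridine (5-EU) for 24 h, the label was then replaced by uridine, and labelled RNA was captured at 0, 1, 2, 4 and 6 h of this chase from 3 OPC and 2 OL replicates. The OLs match a pair of the OPC replicates, and which numbers match is not stated. The values are FPKM (fragments per kilobase of transcript, scaled for library size and, by the authors, to a labelled spike-in) and half-lives in hours that the authors fitted to each replicate.

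The markers fit the labels in most respects. All 6 OL markers used were listed in OLs, with sums of 2374 to 5253 FPKM at 0 h, and 2 of the 6 in OPCs (37.6 to 55.1 FPKM), where Mag, Mog, Mobp and Myrf were not listed. All 5 OPC markers were listed in both, at 1433 to 1469 FPKM in OPCs and 858 to 1062 FPKM in OLs. Olig1 (506 to 1079 FPKM) made up most of these sums. Against their place in the OPC list, Pdgfra was lower in OPCs (26.5, 11.5 and 13.3 FPKM) than in OLs (66.9 and 43.9 FPKM), and so was Sox10 (25.4, 4.06 and 11.9 FPKM against 111 and 89.0 FPKM). Of 4 astrocyte markers 1 was listed in OPCs (179 to 224 FPKM) and 3 in OLs (104 to 165 FPKM), of 4 neuron markers 1 and 2 (13.2 to 17.4 and 25.9 to 27.7 FPKM), and none of the microglia, endothelium or pluripotent cell markers. Slc1a3 made up most of the astrocyte sums. Gfap (6.86 and 8.12 FPKM) and Aldh1l1 (1.72 and 2.44 FPKM) were listed in OLs alone. The 2 cycling markers, Mki67 and Top2a, summed to 42.1 to 171 FPKM in OPCs and 18.6 to 42.6 FPKM in OLs. In such bulk samples fewer cells of a type and less RNA per cell cannot be told apart. The depth behind the FPKM values is unknown, and no value was corrected for RNA captured without biotin, whose control library was not analysed here. Each library has 1 spike-in scale for all transcripts, so a shift of that scale moves every gene alike.

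Many ligase transcripts had short half-lives. Of the 106 with a half-life in all 5 replicates, 52 were under 2 h in all 3 OPC replicates (49.1%, against 27.5% of 8112 transcripts), and 16 were under 2 h in both OL replicates (15.1%, against 8.16%). Many OPC replicate 2 half-lives share a fitted value of 1.96 h, just under that limit. In OPC replicates 1 and 3 alone, a count added after the data were seen, 55 were under 2 h in both (51.9%, against 30.2%). In OPCs their median came to 1.55 h (replicate 1), 1.96 h (replicate 2, the shared value) and 1.91 h (replicate 3), where the medians of all transcripts were 2.35, 2.08 and 2.83 h. In OLs the median came to 3.13 and 3.26 h, against 4.54 and 4.44 h for all. Fewer of them reached the 6 h ceiling to which longer estimates had been set, with 8.49%, 10.4% and 11.3% in OPCs and 24.5% and 25.5% in OLs, against 24.5% to 31.6% and 38.8% to 42.3% of all transcripts. The members were chosen by name and share libraries, so these shares are given as a description with no test.

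At 4 h the median ligase transcript kept 20.0%, 8.38% and 15.6% of its 0 h FPKM in OPCs, by replicate, and 40.8% and 42.7% in OLs. The medians of all transcripts at 4 h were 39.0%, 20.4% and 37.0% in OPCs and 55.4% and 55.0% in OLs. At 6 h 17, 24 and 18 of the 109 ligase transcripts were listed at 0 in OPCs, by replicate, and 4 and 1 of the 127 in OLs. These shares were close to those of all transcripts, at 15.6%, 22.0% and 16.5% against 15.7%, 21.6% and 16.4% in OPCs and at 3.15% and 0.787% against 4.08% and 0.790% in OLs.

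Coding sequence bears on the study's question, since it examined how codons for Phe and Lys relate to decay. Stretches of 5 ligase transcripts are shown here. Rlim is shown because it had the highest AAA share over its whole coding sequence. The 3 codons marked in its stretch are all TTT, and none is AAA. The other 4 are shown because they cover codons rich in UUU and AAA with a short (Rnf219) and a long half-life (Rnf13). They also cover codons poor in them with a short (Rnf122) and a long one (Fbxl6). All 5 were chosen after the values were seen. Each is the first stretch of 20 codons within 1 exon with the most codons of the marked kind, 5′ to 3′ on the coding strand, from the GENCODE M21 transcript on GRCm38. TTT (Phe) and AAA (Lys) are in capitals in the first 3, and TTC (Phe) and AAG (Lys) in the last pair.
Rlim, chrX:103962761-103962820, reverse strand, exon 5: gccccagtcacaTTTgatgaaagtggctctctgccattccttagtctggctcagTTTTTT
Rnf219, chr14:104479658-104479717, reverse strand, exon 6: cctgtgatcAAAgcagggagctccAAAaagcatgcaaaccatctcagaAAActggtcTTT
Rnf13, chr3:57820537-57820596, forward strand, exon 8: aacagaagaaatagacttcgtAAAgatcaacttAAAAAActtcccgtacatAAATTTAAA
Rnf122, chr8:31118523-31118582, forward strand, exon 2: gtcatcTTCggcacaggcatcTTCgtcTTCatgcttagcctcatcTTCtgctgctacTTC
Fbxl6, chr15:76537952-76538011, reverse strand, exon 2: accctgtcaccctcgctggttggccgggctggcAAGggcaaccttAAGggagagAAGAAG

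Rlim, an X-linked RING ligase that binds LIM domain cofactors, had the highest AAA share of the 129 ligase transcripts with a usable coding sequence. All 6 of its Lys codons were AAA and of its Phe codons 10 were UUU and 5 UUC (66.7% UUU), over 600 codons of a transcript at chrX:103957163-103981284. OPCs had 3.54, 2.15 and 2.90 h and OLs had 1.48 and 2.51 h, so that the cell types overlapped in its half-life. Its OPC values were above the medians of all transcripts in their replicates (2.35, 2.08 and 2.83 h) and its OL values below theirs (4.54 and 4.44 h). On the log2 scale OLs differed by -0.54 ± 0.37 (SE, limma with Benjamini-Hochberg adjustment over 8112 transcripts, adjusted p 0.51), the lowest value of any ligase transcript. The difference was -1.44 with each replicate centred on its median, which moved the median of all transcripts to -0.53. It was -1.03 with libraries rescaled to 1 mean decay curve and -1.09 without the 6 h libraries (limma adjusted p 0.0509, 0.416 and 0.514). Rlim passed under none of them. During the chase it fell in all 5 replicates, by slopes of log2(FPKM + 1) from -0.56 to -0.31 per h in OPCs and of -0.55 and -0.41 per h in OLs. With each library set to the 0 h median of its replicate its OPC slope was 0.0145 in place of -0.42.

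Rnf219, a RING ligase of replication origins also called Obi1, had the highest UUU share (17 UUU and 2 UUC codons, 89.5%) and 51.6% AAA among its Lys codons. Its half-lives were among the short ones, at 0.874, 0.886 and 1.24 h in OPCs and 0.396 and 1.79 h in OLs, where the replicates lay on both sides of the OPC values. Rnf13, an endosomal transmembrane ligase, ranked 3 of 129 in AAA share (15 AAA and 8 AAG codons, 65.2%) and used UUU for 66.7% of Phe codons. It was at the 6 h ceiling in all 5 replicates, and at 6 h of chase its FPKM was 76.2%, 97.5% and 145% of the 0 h value in OPCs and 111% and 125% in OLs. Rnf122, a membrane RING ligase, had 1 UUU and 9 UUC codons for Phe (10.0% UUU) and 2 AAA and 9 AAG codons for Lys (18.2% AAA). Its half-lives were short too, at 1.35, 1.96 and 1.67 h in OPCs and 1.89 and 1.96 h in OLs. Fbxl6, a leucine-rich repeat receptor, was also poor in both codons, with 18.2% UUU and 26.3% AAA, and its half-lives were long, at 4.15, 6.00 and 5.11 h in OPCs and at the ceiling in both OL replicates.

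The medians of these features are given as a description, with no test. The ligase transcripts' median UUU share was 42.9%, against 44.4% of all listed transcripts, their median AAA share was 33.3%, against 37.5%, and their median GC content at the wobble position of codons was 63.3%, against 60.6%. Their median 3′ UTR had 1381 bases, against 1096. The motif TATTTA, searched on the transcript strand in the first 500 bases of 3′ UTRs at least that long, was in 22.5% of 102 ligase transcripts and in 24.3% of 7385 transcripts overall.

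Across the 105 ligase transcripts with both measures, Spearman's rho between AAA share and half-life came to -0.07, -0.20 and -0.02 in OPCs, by replicate, and to -0.34 and -0.17 in OLs. The values over all 8089 transcripts were 0.03, -0.08 and 0.04 in OPCs and -0.26 and -0.12 in OLs. For UUU share the ligase transcripts had 0.10, 0.02 and 0.14 in OPCs and -0.18 and 0.03 in OLs, of opposite sign in the 2 OL replicates. Over all 8068 transcripts with that share it was 0.05, -0.04 and 0.05 in OPCs and -0.22 and -0.08 in OLs. The transcripts of a replicate share its libraries and its spike-in scale, and AAA share moves with base composition, so these are descriptions. For GC content at the wobble position the ligase transcripts had -0.01, 0.12 and -0.07 in OPCs and 0.34 and 0.08 in OLs. In OLs all transcripts had 0.29 and 0.11. When the 105 were split in 3 equal groups by AAA share, the median half-life in OL replicate 1 was 3.96, 3.66 and 1.74 h from the lowest to the highest share, and in OL replicate 2 it was 3.38, 3.26 and 2.64 h. The same groups had 1.64, 1.56 and 1.46 h in OPC replicate 1, 1.96, 1.96 and 1.94 h in OPC replicate 2 and 1.81, 1.96 and 1.96 h in OPC replicate 3, with no common order. The length of the 3′ UTR gave a rho of -0.32 and -0.38 in OLs and of -0.14, -0.19 and -0.01 in OPCs, where all transcripts had -0.25 and -0.24 and then -0.13, -0.21 and -0.11.

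**Figure D1:**
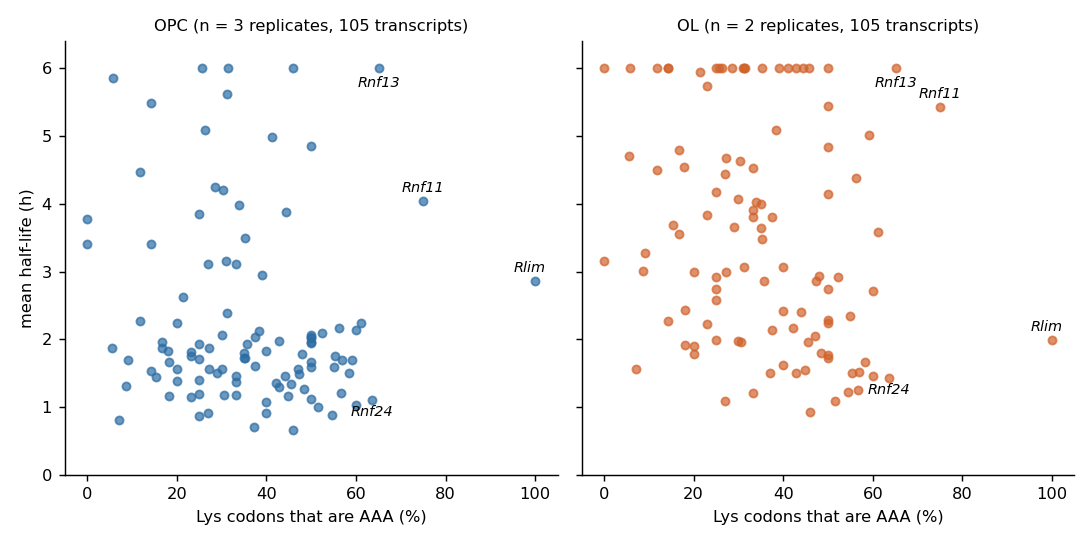
Share of Lys codons that are AAA (x axis, %) against mean half-life (y axis, h, ceiling at 6 h) for 105 ligase transcripts, each a point, in OPCs (mean of 3 replicates) and OLs (mean of 2). Rlim has the highest share, at 100%, and Rnf13, with 65.2%, is at the ceiling in both cell types.

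The half-life comparison asked which ligase transcripts decayed at another rate in OLs than in OPCs. The log2 half-life was higher in OLs for 95 of 106, lower for 6 and equal for the 5 at the ceiling throughout, where it was higher for 5663 of all 8112 transcripts and lower for 1143. Its median was 0.65, against 0.37 over all. After centring each replicate on its median, 38 of 106 were higher, against 1977 of 8112. At an adjusted p under 0.05, 4 ligase transcripts had longer half-lives in OLs and 0 had shorter ones. That is 3.77% of 106, where 3.54% of all transcripts passed (3.39% longer). At an unadjusted p under 0.05 there were 30 of 106, all longer in OLs, where 1866 of all 8112 transcripts passed in either direction. Both OL replicates lay above all 3 OPC replicates for 51 of 106 (48.1%, against 35.9% of all transcripts) and below them for 0, against 2.01%.

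**Figure D2:**
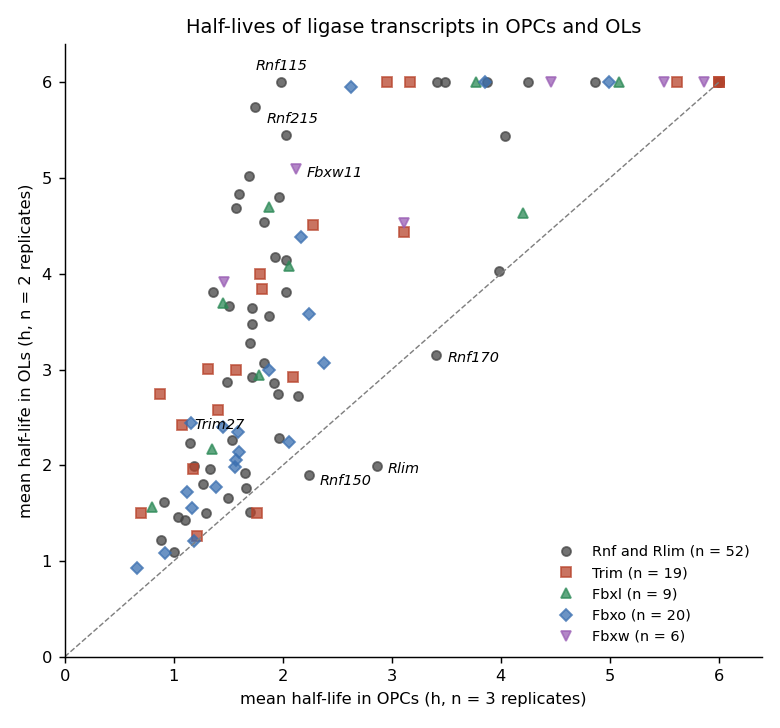
Mean half-life in OPCs (x axis, h, n = 3) against OLs (y axis, h, n = 2) for the 106 ligase transcripts with a half-life in all 5 replicates, by family. The dashed line marks equal values, and points at 6 h are at the ceiling. Most points lie above the line, and Rlim, Rnf150 and Rnf170 are among the 5 below it.

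Trim27, a TRIM ligase with roles in immune signalling and endosome sorting (chr13:21179931-21194723, forward strand, 8 exons), had half-lives of 1.02, 1.15 and 1.05 h in OPCs and 2.47 and 2.37 h in OLs. All OPC values were below both OL values, with a log2 difference of 1.17 ± 0.07 (SE, adjusted p 0.0203). It passed under 4 of 10 alternatives, rescaling (1.08, adjusted p 0.0269), slopes, no 6 h libraries (1.16, 0.0496) and no OPC replicate 2. It did not pass after centring (0.27, 0.541), with the replicate block (0.2) or without OPC replicate 1 (0.0539), OPC replicate 3 (0.0642), OL replicate 1 (0.0884) or OL replicate 2 (0.0743). Its 0 h FPKM went the other way, at 25.7, 21.7 and 20.9 in OPCs and 9.85 and 9.99 in OLs (-1.12 ± 0.24 on the log2(FPKM + 1) scale, limma adjusted p 0.007). Trim27 was the 1 member that passed in both comparisons.

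Rnf115, a RING ligase of endosomal trafficking (chr3:96727664-96791152, forward strand, 9 exons), had 1.86, 2.22 and 1.86 h in OPCs and the 6 h ceiling in both OL replicates. The difference was 1.60 ± 0.10 (adjusted p 0.0241), in which the OL values at the ceiling have no spread and could not be larger. It was 0.93 after rescaling all libraries to 1 mean decay curve and 0.70 after centring, with adjusted p-values of 0.318 and 0.132, and 1.03 without the 6 h libraries (0.705). Its 0 h levels overlapped, from 28.3 to 39.2 FPKM in OPCs and at 35.8 and 43.8 FPKM in OLs.

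Rnf215, a predicted transmembrane RING protein (chr11:4135202-4141172, forward strand, 9 exons), had 1.72, 1.96 and 1.57 h in OPCs and 6.00 and 5.49 h in OLs, with 1 OL replicate at the ceiling (1.72 ± 0.12, adjusted p 0.0263). After centring the difference was 0.82 (adjusted p 0.0944), and it was 1.47 after rescaling (0.112) and 1.27 without the 6 h libraries (0.705). It was listed at 0 at 6 h in all 3 OPC replicates, and at 78.2% and 46.9% of its 0 h level in OLs.

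Fbxw11, the substrate receptor also called beta-TrCP2 (chr11:32642724-32746569, forward strand, 13 exons), had 1.96, 1.96 and 2.44 h in OPCs and 4.85 and 5.33 h in OLs (1.27 ± 0.14, adjusted p 0.0444). The difference was 0.38 after rescaling, 0.36 without the 6 h libraries and 0.37 after centring, with adjusted p-values of 0.362, 0.752 and 0.361. At 6 h of chase 9.70%, 6.92% and 11.7% of its 0 h level was left in OPCs and 25.5% and 45.8% in OLs. Its 0 h levels were 52.6 to 56.7 FPKM in OPCs and 58.8 and 64.8 FPKM in OLs (0.18 ± 0.17, adjusted p 0.439).

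Other large differences did not pass. Trim11, a TRIM ligase of the developing nervous system, had 0.599, 1.20 and 0.814 h in OPCs and 3.52 and 1.98 h in OLs (1.66 ± 0.45, adjusted p 0.159). Rnf19b, a RING-between-RING ligase, had 0.792, 1.96 and 1.96 h and then 3.37 and 6.00 h (1.63 ± 0.60, adjusted p 0.24). Rnf167 and Rnf130 belong to the transmembrane ligases of endosomes. They had differences of 1.58 ± 0.33 (adjusted p 0.11) and 1.54 ± 0.21 (adjusted p 0.0589), with 1 OL replicate at the ceiling each.

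At the other end, Trim33 (-0.24), Rnf219 (-0.23), Rnf168 (-0.17), Rnf150 (-0.16) and Fbxo33 (-0.03) had log2 differences just below 0, all with overlapping replicates and adjusted p-values of 0.562 to 1. The direction of these 5 turned under at least 1 alternative.

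**Figure D3:**
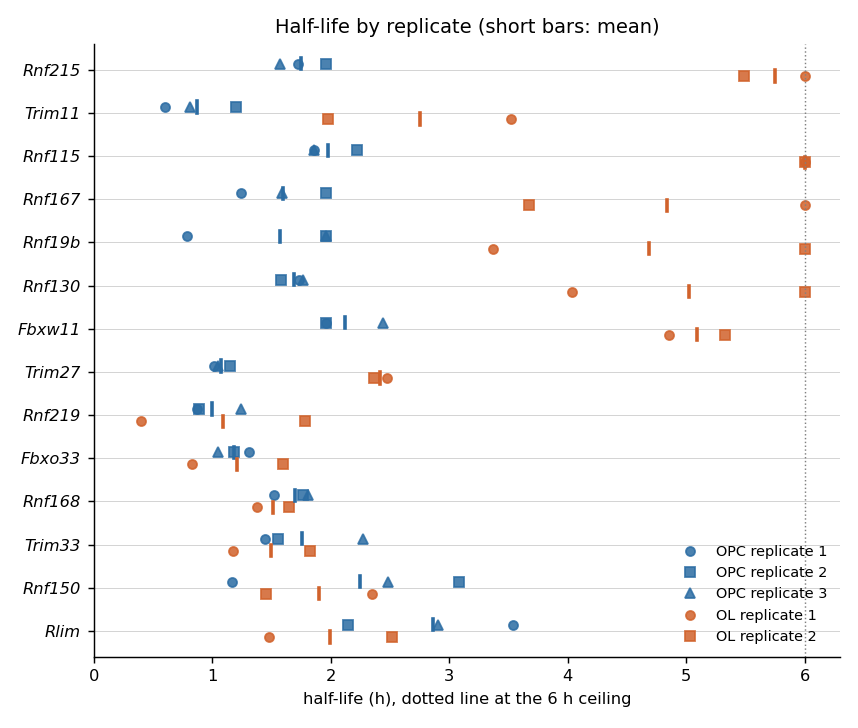
Half-life (x axis, h) of 14 ligase transcripts, those past the threshold or with the 6 highest or 6 lowest signed log2 differences (OL minus OPC), by replicate, with OPCs in blue and OLs in orange and a short bar at each mean. Trim27, Fbxw11, Rnf115 and Rnf215 passed the test, and the OL points of Rlim, Trim33, Rnf219, Rnf168, Rnf150 and Fbxo33 mix with the OPC points.

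The number of calls depended on which replicates were included. Without OPC replicates 1, 2 and 3 in turn, 0, 5 and 2 of 106 ligase transcripts passed, where 173, 167 and 218 of all 8112 transcripts did. Without OL replicate 1 or 2 only 1 OL sample is left, so no count is given. The median difference was then 0.83 and 0.38 for the ligase transcripts, against 0.46 and 0.27 over all. When each replicate was centred on its median over all transcripts, the median difference of all transcripts moved from 0.37 to -0.53. That of the ligase transcripts moved from 0.65 to -0.25, with 0 of them passing and 1 of all 8112 transcripts.

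A shared value ran through the half-lives of OPC replicate 2. There, 34 of the 106 ligase transcripts (32.1%) had a half-life of 1.96 h to within 0.001 h, as did 25.3% of all 8112 transcripts. It is the value at which the sum of absolute deviations has its minimum whenever the 1 and 2 h levels lie above the fitted curve and the 4 and 6 h levels below it, whatever the levels are, and all 34 had that pattern. The same value was held by 6 ligase transcripts in OPC replicate 3, 2 in OL replicate 2 and 0 in the other replicates. At this value the half-life does not vary with the levels themselves. The median of all transcripts in OPC replicate 2 was 95.3%, 83.3%, 20.4% and 10.98% of the 0 h level at 1, 2, 4 and 6 h. In OL replicate 1 that median was higher at 2 h (72.8%) than at 1 h (63.99%). Whether the spike-in scales of these libraries played a part was not tested. In OPC replicate 2 the shared value was held by Rnf215, Rnf167, Rnf122 and Rnf144a, among others. To 2 decimals Fbxw11 had 1.96 h in OPC replicates 1 and 2, and Rnf19b in OPC replicates 2 and 3.

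Slopes over the chase do not have such ties. In OPCs 104 of 109 ligase transcripts fell (95.4%) and 0 rose, where 87.0% of all 8530 transcripts passed (81.9% fell and 5.06% rose), with a median slope of -0.46 log2 units per h against -0.38 over all. In OLs 111 of 127 fell (87.4%) and 0 rose, where 70.9% of 9751 passed (68.9% fell and 1.98% rose), with a median of -0.27 against -0.20. When each library was instead set to the 0 h median of its replicate, 25 fell and 23 rose in OPCs (22.9% and 21.1%, against 13.5% and 39.4% of all), and 31 fell and 20 rose in OLs (24.4% and 15.7%, against 13.4% and 31.4%). That scaling moved the median of all slopes to 0.0612 in OPCs and 0.0327 in OLs, and the medians of the ligase transcripts to -0.0232 and -0.0326.

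In OPCs the steepest were Rnf167 (-0.83 ± 0.07, SE), Rnf25 (-0.71 ± 0.07), Rnf130 (-0.69 ± 0.07), Fbxo5 (-0.69 ± 0.09) and Rnf122 (-0.69 ± 0.07). In OLs they were Trim59 (-0.58 ± 0.05), Rnf122 (-0.57 ± 0.04), Rnf144a (-0.51 ± 0.04), Rnf185 (-0.50 ± 0.06) and Rnf19a (-0.49 ± 0.05). All 10 passed with limma adjusted p-values of at most 0.0252 under every alternative tried. Rnf122 was on both lists, and its 6 h level was 6.18%, 0% and 5.72% of 0 h in OPCs and 10.1% and 6.84% in OLs.

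Shallowest in OPCs were Trim56, an antiviral TRIM ligase (0.11 ± 0.06, adjusted p 0.0789), Trim37, a ligase of centrosome assembly (0.06 ± 0.04), Rnf187 (0.02 ± 0.03), Rnf13 (0.01 ± 0.04) and Rnf10 (-0.04 ± 0.03). These 5 were also the transcripts at the half-life ceiling in all 5 replicates, which is 4.72% of 106, against 16.1% of all transcripts. Shallowest in OLs were Fbxo2 (0.09 ± 0.04, adjusted p 0.0842), Rnf5, a ligase of protein disposal at the endoplasmic reticulum (0.08 ± 0.04, adjusted p 0.105), Rnf13, Trim37 and Trim56. None of these slopes passed the test on the spike-in scale. Rnf10 (0.40 in OPCs) and the other 9 passed as rising with each library set to its 0 h median.

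**Figure D4:**
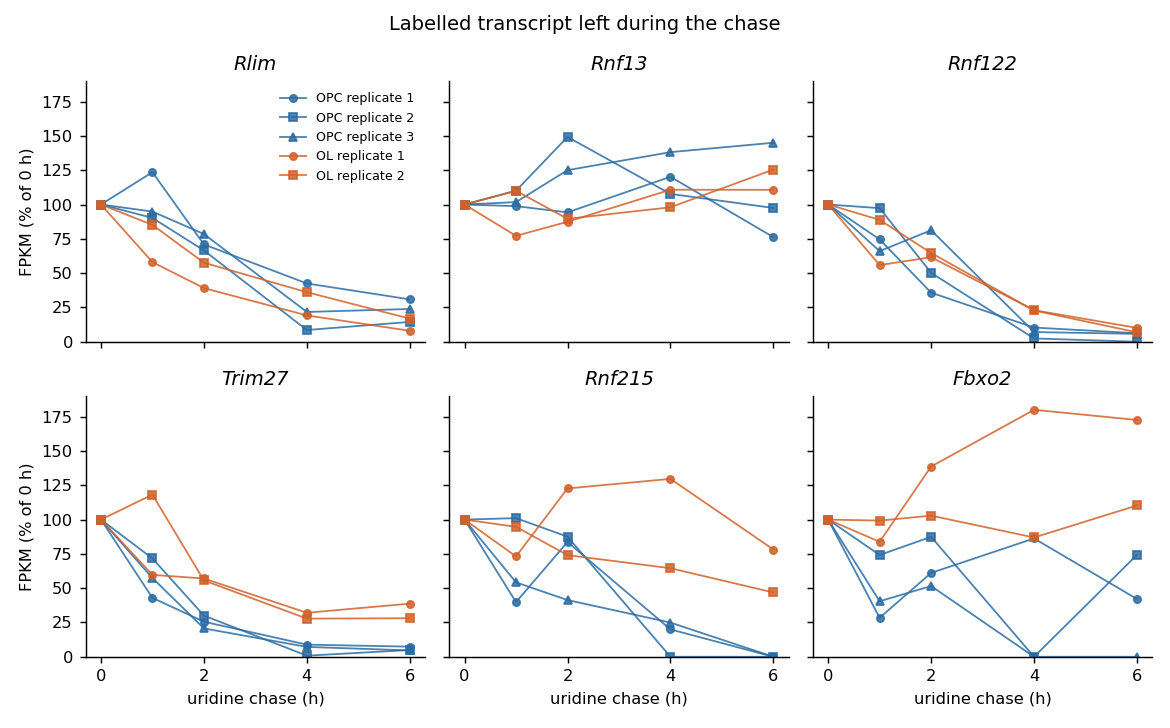
FPKM as a percent of the 0 h value (y axis) over hours of uridine chase (x axis) for 6 ligase transcripts, with OPC replicates in blue and OL replicates in orange. Rnf13 stays between 76.2% and 149% in all 5 replicates, Rnf122 falls below 11% by 6 h in all 5, and Trim27 ends lower in each OPC replicate than in either OL replicate.

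With 1 slope per replicate in place of the half-life, 32 of 106 ligase transcripts fell less steeply in OLs (30.2%, where 24.1% of all transcripts did) and 0 more steeply, against 0.0863%. The 4 with longer half-lives were among them. Since 1 was added to each FPKM, these slopes also depend on the 0 h level and on values listed at 0. The comparison of slopes between cell types was not repeated with another pseudocount. The largest of the named differences was that of Rnf167, with slopes of -0.69, -0.97 and -0.84 in OPCs and -0.15 and -0.26 in OLs (0.63 ± 0.09, limma adjusted p 0.00256). Rlim had slopes that overlapped (-0.05 ± 0.09, adjusted p 0.70).

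Labelled transcript at 0 h, the sum of 24 h of synthesis and decay, differed between the cell types for 29 of 106 ligase transcripts (27.4%, against 31.6% of 8177 transcripts). In OLs 18 were higher (17.0%, against 14.1%) and 11 lower (10.4%, against 17.5%). Both OL replicates lay above all OPC replicates for 39 (36.8%, against 28.0%) and below them for 20 (18.9%, against 31.4%), and all 29 were among these. Of the 18 that were higher, 16 had a longer mean half-life in OLs, as had 10 of the 11 that were lower and 96 of all 106 ligase transcripts.

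The largest rise was that of Fbxo2, an F-box protein that binds glycoproteins with mannose-rich sugars and is known from neurons (chr4:148160621-148166424, forward strand, 6 exons). It was at 5.61, 3.15 and 4.01 FPKM in OPCs and at 16.6 and 37.2 FPKM in OLs, with no overlap (2.33 ± 0.38, SE, limma adjusted p 0.00183). At 6 h of chase OLs held 173% and 110% of its 0 h level, and its half-life was at the ceiling in both OL replicates. In OPCs its half-lives spread from 0.766 to 6.00 h. Its rise differed from those of Rnf122 (2.15 ± 0.26) and Fbxo7 (2.06 ± 0.29) by less than its SE, so their order is not settled.

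Rnf122 was also higher in OLs, while its half-life difference did not pass (0.23 ± 0.19, SE, limma adjusted p 0.588). Its level was 16.8, 21.2 and 21.9 FPKM in OPCs and 122 and 69.1 FPKM in OLs (2.15 ± 0.26, adjusted p 0.000369), which placed it among the 5 highest ligase transcripts of OLs. Fbxo7, a receptor linked to the proteasome and to mitophagy, rose from 4.87 ± 1.20 FPKM (SD, n = 3) to 23.4 ± 4.38 FPKM (SD, n = 2), at 2.06 ± 0.29 (SE, adjusted p 0.00089), and its half-life was 1.65 to 2.29 h in OPCs and 2.25 and 2.23 h in OLs.

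The RING-between-RING ligases Rnf144a and Rnf19a rose as well. Rnf144a was at 22.3, 16.8 and 17.1 FPKM in OPCs and 64.6 and 51.2 FPKM in OLs (1.58 ± 0.22, adjusted p 0.000846). Rnf19a, also called Dorfin, was at 5.34, 8.11 and 8.90 FPKM and then at 19.2 and 20.8 FPKM (1.34 ± 0.29, adjusted p 0.00782). Both were among the 5 steepest slopes in OLs. Rnf13, at the half-life ceiling in both cell types, was at 29.1, 29.3 and 25.0 FPKM in OPCs and 71.8 and 68.0 FPKM in OLs (1.30 ± 0.19, adjusted p 0.000909).

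Among the other F-box transcripts, Fbxo11 (1.30), Fbxo25 (1.27), Fbxo8 (1.26) and Fbxl20 (1.15) were higher in OLs, with adjusted p-values of 0.00317 to 0.0332. Fbxo11 is a receptor for the repressor Bcl6, and Fbxo25 and Fbxo8 are less studied. OPC replicate 2 held 18.2 FPKM of Fbxo11, where OPC replicates 1 and 3 held 6.77 and 6.91 FPKM.

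The largest fall was that of Rnf26, a ligase of the endoplasmic reticulum that tethers endosomes, from 37.1, 28.7 and 43.0 FPKM in OPCs to 10.9 and 11.3 FPKM in OLs (-1.61 ± 0.24, adjusted p 0.00116). The fall of Fbxo5 (-1.31 ± 0.34) lay within its own SE of that value, so their order is not settled. Trim28, the co-repressor also called KAP1, was the highest ligase transcript of OPCs, with 268, 220 and 244 FPKM. It fell to 107 and 106 FPKM in OLs (-1.18 ± 0.17, adjusted p 0.00109), although its half-life was 2.61, 3.26 and 3.62 h in OPCs and at the ceiling in both OL replicates (0.94 ± 0.17, adjusted p 0.0895).

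Fbxo5, the inhibitor of the anaphase-promoting complex also called Emi1, was at 21.1, 30.5 and 23.7 FPKM in OPCs and 14.2 and 6.08 FPKM in OLs (-1.31 ± 0.34, adjusted p 0.0177). Its fall went with the cycling markers, whose sums were 42.1 to 171 FPKM in OPCs and 18.6 to 42.6 FPKM in OLs, and their part in it was not tested. OPC replicate 1, at the low end of these sums, held 21.1 FPKM of Fbxo5. Rnf4, a ligase that reads SUMO chains, went from 102, 90.4 and 93.3 FPKM to 47.7 and 51.5 FPKM (-0.93 ± 0.17, adjusted p 0.00347).

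The leucine-rich repeat receptors Fbxl15 (-1.26), Fbxl14 (-1.12), which targets Snail proteins, and Fbxl19 (-0.95) were lower in OLs with adjusted p-values of 0.00326 to 0.0148. So were Trim62 (-0.97) and Trim37 (-0.85), with 0.0257 and 0.0242. Trim37, at the half-life ceiling throughout, had 22.2, 26.2 and 27.4 FPKM in OPCs and 11.6 and 15.6 FPKM in OLs.

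**Figure D5:**
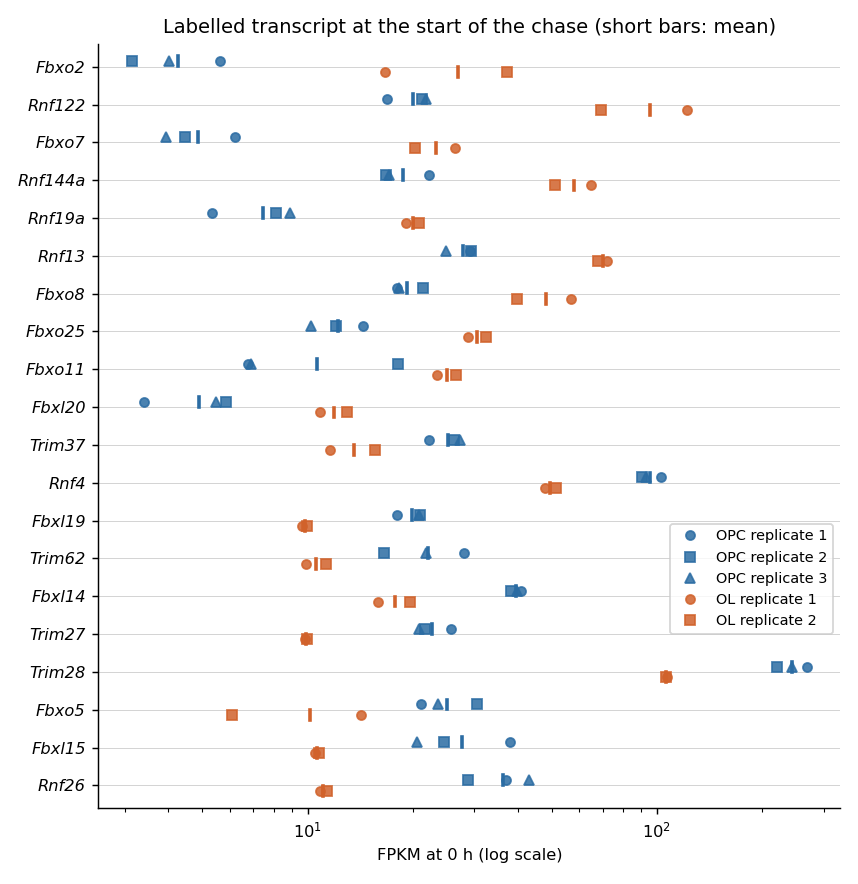
FPKM at 0 h (x axis, log scale) of the 10 ligase transcripts with the largest rises and the 10 with the largest falls in OLs, by replicate, with OPCs in blue, OLs in orange and a short bar at each mean. The cell types do not overlap for any of the 20. OL replicate values are farthest apart for Fbxo2 (16.6 and 37.2) and Fbxo5 (14.2 and 6.08).

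Leaving out OPC replicate 3 lowered the 29 calls to 16, where the calls over all 8177 transcripts went from 2586 to 1446. Leaving out an OL replicate leaves 1 OL sample, so no count is given for it. Of the 20 named transcripts, 9 passed under all 9 alternatives, namely Fbxo2, Rnf122, Fbxo7, Rnf144a, Rnf13, Rnf26, Trim28, Fbxl14 and Rnf4.

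Mean 0 h levels ran from 1.19 to 244 FPKM in OPCs, with a median of 18.2 FPKM (18.4 over all transcripts), and from 1.59 to 133 FPKM in OLs, with a median of 15.3 FPKM (16.3 over all). After Trim28 the highest in OPCs were Rnf187 (197 ± 47.5 FPKM, SD), Rnf4 (95.4 ± 6.28), Trim35 (95.3 ± 6.23) and Rnf10 (94.1 ± 12.4), and the last 3 lie within 1 SD of each other. In OLs the order was Rnf187 (133 ± 3.01), Trim28 (107 ± 0.929), Trim35 (101 ± 13.5), Rnf122 (95.5 ± 37.3) and Rnf14 (84.4 ± 7.96), in which neighbours after Rnf187 do not differ beyond their spread. Rnf187 encodes a RING protein of AP-1 signalling, and its half-life was at the ceiling in all 5 replicates.

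OPCs alone listed Fbxo48 (4.98 ± 1.10 FPKM, SD), Trim71, an RNA-binding TRIM protein of stem cells (2.96 ± 1.80), and Trim68 (2.43 ± 0.721), with mean half-lives of 1.07, 0.739 and 0.757 h. The 21 of OLs alone were led by Fbxo32, the muscle atrophy receptor also called atrogin-1 (17.8 ± 1.89 FPKM), Rnf141 (15.8 ± 3.34), Fbxo30 (14.3 ± 0.514), Rnf6 (13.9 ± 5.53) and Fbxl4 (13.5 ± 1.32). Of these 5, Rnf141 had the longest half-life, at 6.00 and 4.05 h. A gene absent from a table has no value here, so no fold is given.

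By family, half-lives were longest for the Fbxw receptors, whose substrates bind a WD40 propeller, with a median over 6 transcripts of 3.79 h in OPCs and 5.54 h in OLs. They were shortest for the 20 Fbxo transcripts (1.58 and 2.29 h), and in between for 52 Rnf transcripts (1.79 and 3.38 h), 19 Trim transcripts (1.79 and 3.00 h) and 9 Fbxl transcripts (1.87 and 4.08 h). All 9 Fbxl and all 6 Fbxw transcripts had a higher log2 half-life in OLs, as had 19 of 20 Fbxo, 16 of 19 Trim and 45 of 52 Rnf transcripts, against 95 of 106 over all families and 5663 of 8112 over all transcripts (38 and 1977 after centring). At 0 h the Fbxo genes had 6 higher and 1 lower, the Rnf genes 10 and 3, the Fbxl genes 2 and 3, the Trim genes 0 and 4, and the Fbxw genes 0 of 6 in either direction.

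By role, the 12 RING ligases of chromatin and DNA damage fell in both cell types, where 95.4% and 87.4% of all ligase transcripts and 81.9% and 68.9% of all transcripts did. At 0 h Rnf138, a DNA repair ligase, was higher in OLs while Rnf4 and Trim28 were lower. The counts by family and role at 0 h stand against 14.1% higher and 17.5% lower over all transcripts and 17.0% and 10.4% over the ligase transcripts, and nothing is read from them for a single list. Of 16 membrane and secretory pathway ligases tested at 0 h, 5 were higher in OLs (Rnf103, Rnf122, Rnf13, Rnf130 and Rnf150) and 2 lower (Rnf145 and Rnf26). Of 6 RING-between-RING ligases 2 were higher and 0 lower. Of the 5 cell cycle F-box genes Fbxo7 was higher and Fbxo5 lower. Of 3 TRIM genes of innate immunity 1, Trim27, was lower, and none of 3 TRIM genes of neurons and muscle passed. Of 2 glycoprotein-binding F-box genes 1, Fbxo2, was higher.

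Genes of the SCF core, its E2 enzymes and cofactors and the neddylation enzymes that activate cullins are not among the members. None of the 11 measured passed in half-life, and at 0 h Uba3, a subunit of the NEDD8-activating enzyme, was higher in OLs (0.87 ± 0.20, adjusted p 0.0104) and Cks1b, a cofactor of Skp2, was lower (-2.42 ± 0.24, adjusted p 0.000124). Skp1a, the adaptor, was at the half-life ceiling in all 5 replicates (0.14 ± 0.03 log2 units per h in OPCs, a rise with adjusted p 6.13e-05). Of 4 F-box genes with other symbols Skp2 (-1.56 ± 0.26, adjusted p 0.00208) and Kdm2b (-0.97 ± 0.27, adjusted p 0.0242) were lower in OLs at 0 h and none differed in half-life. Of 6 other cullins 1, Cul7, was lower at 0 h. Of 30 RING genes with other symbols 3 had longer half-lives in OLs, namely Mib2 (1.86 ± 0.15, adjusted p 0.0325), Mid2 (1.21 ± 0.10, adjusted p 0.0328) and Traf3 (1.16 ± 0.10, adjusted p 0.0328). At 0 h 4 were higher and 5 lower. Over all transcripts 3.39% had longer half-lives, and at 0 h 14.1% were higher and 17.5% lower. Values under the alternatives are not given for the genes outside the families. After centring, 1 of all 8112 transcripts passed in half-life.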

How the data were processed

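Per the labels, labelled RNA was biotinylated by click chemistry, captured on streptavidin beads and sequenced. The authors' processing notes name HISAT2 2.1.0 and StringTie 1.3.5, with GRCm38 (mm10). The deposited FPKM values were normalised by the authors to 5-EU spike-ins, and the deposited tables hold transcripts above a minimum the authors set. The deposited half-lives (h) came from single exponential decay fitted by least absolute deviations. Longer ones had been set at about 6 h by the authors and were put at 6 h exactly here. A refit of the FPKM gave the deposited half-life to within 0.01 h for 98.2% to 99.9% of transcripts per replicate.

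The 15 OPC and 10 OL libraries were grouped by their labels, and the control library was left out. Of columns with sample values, 0 were unmapped. No replicates held the same values throughout. The study calls them biological replicates, of which the OLs match a pair of the OPCs, and p-values measure the spread between these samples. limma 3.58.1 in R 4.3.3 tested log2 half-life and log2(FPKM + 1) at 0 h between cell types, and log2(FPKM + 1) against hours within each cell type with an intercept per replicate (trend on for FPKM), over all transcripts, with Benjamini-Hochberg adjustment. A transcript at 6 h in every replicate has no spread of its own. Pseudocount, filter, centring, rescaling, time points, block and each replicate were varied. The models were also run on simulated, normally distributed values with 1 spread for all transcripts, and the outcome is not given here. Those values had no 6 h ceiling, shared half-life or zeros, so the run could not address these features. Coding sequences were those of GENCODE M21, in which the 10104 transcripts were found by identifier, 10089 with a usable coding sequence (not Rnf187).

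The members and lists were chosen with earlier results of these data known. Named were all members past the half-life threshold, the 6 longest and 6 shortest half-life changes, up to 10 higher and 10 lower at 0 h without overlap, the 5 steepest and 5 shallowest slopes and 5 highest levels per cell type, up to 5 listed for 1 cell type, and Rlim. Rnf170, Rnf138, Rnf103, Rnf145 and the genes outside the families stand for counts and were named after their values were seen. A further gene with a fitting symbol and an OL marker are not reported here.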

Additional observations from a re-analysis of the deposited data

Results flagged for a closer look

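Groups of 3 and 2 replicates were too small for a test of single outlying samples. The rate of fall during the chase differed between the cell types for 9 transcripts named for their half-life or slope, which are among the 32 of the report, by limma on 1 slope of log2(FPKM + 1) per replicate, with Benjamini-Hochberg adjustment over 8112 transcripts. In all 9 the fall was less steep in OLs. Such slopes also depend on the 0 h level, as 1 was added to each FPKM. The difference in log2 units per h was 0.63 for Rnf167 (adjusted p 0.00256), 0.53 for Rnf215 (0.00302), 0.53 for Rnf130 (0.00572), 0.36 for Rnf25 (0.0103), 0.35 for Rnf19b (0.00998), 0.35 for Trim27 (0.0131), 0.34 for Rnf115 (0.0115), 0.33 for Fbxw11 (0.0157) and 0.27 for Trim11 (0.0426). Over all transcripts the median difference was 0.14, and 24.1% fell less steeply in OLs.

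Slopes of opposite sign in every replicate were seen for Fbxo2 and Rnf5. Fbxo2 had -0.05, -0.14 and -0.40 log2 units per h in OPC replicates and 0.16 and 0.01 in OL replicates, with a mean of 0.0861 in OLs. Rnf5 had -0.20, -0.04 and -0.11 in OPCs and 0.10 and 0.06 in OLs, with a mean of 0.0804. The difference was 0.28 ± 0.10 (SE) for Fbxo2 (limma adjusted p 0.0624) and 0.20 ± 0.08 for Rnf5 (adjusted p 0.0862), so neither passed.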

How the results depend on the processing

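Against 4 ligase transcripts past the threshold in half-life, 0 passed after centring, 1 after rescaling to the mean decay curve, 1 without the 6 h libraries and 32 by slopes. Over all 8112 transcripts these counts were 1, 240, 30 and 1958, against 287. Leaving out 1 OPC replicate gave 0 to 5 ligase transcripts and 167 to 218 over all. At 0 h leaving out 1 replicate gave 12 to 31 against 29. Without OPC replicates 1, 2 and 3 in turn, 2704, 2912 and 1446 of all 8177 transcripts passed at 0 h, against 2586 with all replicates. The ligase counts were then 31, 30 and 16. With libraries set to their 0 h median 48 of 109 slopes passed in OPCs and 51 of 127 in OLs. Positive slopes then went from 4 to 45 in OPCs and from 6 to 49 in OLs. Centring took the half-lives longer in OLs from 95 to 38 of 106. The cause was not tested.

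The replicate numbers are not shown to pair OPCs with OLs, since deviations of samples with the same number correlated at -0.0016 and -0.1054 (half-life) and 0.0589 and 0.0102 (0 h). The study matches the OLs to a pair of OPC replicates without numbers, and deviations of 2 OL replicates mirror each other, so the correlations are a weak check. With the replicate block 0 ligase transcripts passed by half-life (adjusted p 0.155 to 0.2 for Trim27, Fbxw11, Rnf115 and Rnf215, and 0 of all 8112 passed, 1554 at an unadjusted p under 0.05) and 25 at 0 h. Without it in the slopes, 104 and 109 passed.

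Among the named transcripts directions turned as follows, and of these values only the OPC slope of Rlim (-0.42) had passed the threshold. By slopes they turned for Trim33 (0.0345), Rnf219 (0.0243), Rnf168 (0.0525) and Fbxo33 (0.11). Rnf150 was at 0.0632 after rescaling and at 0.33 without the 6 h libraries. When 1 replicate was left out, the half-life differences ran from -0.56 to 0.0811 for Trim33, -1.32 to 0.86 for Rnf219 and -0.50 to 0.43 for Fbxo33 (each highest without OL replicate 1), and from -0.58 to 0.18 for Rnf150 (highest without OL replicate 2, and 0.12 without OPC replicate 2). Fbxo33 was at 0.0444 without OPC replicate 1. OPC slopes turned at the 0 h median for Rnf10 (0.40) and Rlim (0.0145) and without 6 h for Rnf10 (0.0038). With 1 replicate left out, slopes ran from -0.0296 (without OPC replicate 3) to 0.0354 for Rnf13, from -0.0108 (without OPC replicate 2) to 0.0431 for Rnf187, and in OLs from -0.0915 (without OL replicate 1) to 0.11 for Trim56. The cause was not tested. Direction held for the named 0 h differences under the alternatives run. Depth is unknown, so no interval for single FPKM values is given.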
